A study of Mus musculus with 6 samples.

Results

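The 10 genes described here are known from eosinophils and were followed in neutrophils sorted from mouse bone marrow: the granule genes Prg2, Prg3, Epx, Ear1, Ear2 and Ear6, and the surface and enzyme genes Siglecf, Il5ra, Ccr3 and Alox15. They were selected by symbol among the 47561 rows of the deposited files. Where several rows shared a symbol, the row was to be chosen by its total over the libraries, but all 10 symbols were found in 1 row each. RNA was sequenced from cells of male wild-type mice, 3 libraries from Control animals and 3 from animals under chronic unpredictable mild stress (CUMS) for 4 weeks, a procedure that applies varied stressors in turn to model depression. The series title ties the neutrophil elastase gene Elane to neutrophil entry into the brain, and the design compares the marrow pool of these cells with and without stress. The sources used here give neither the markers of the sorting gate nor the number of animals behind a library, so p-values measure the spread between these samples, which may be technical.

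Eosinophils are granulocytes that, like neutrophils, arise from myeloid progenitors in the marrow. Their large granules hold a basic protein that forms a crystalline core, a peroxidase, and ribonucleases of the Ear family, and the messages for these proteins are made mainly while the cells are still maturing in the marrow. Development and survival depend on interleukin signalling through the receptor subunit encoded by Il5ra, and exit to tissue on the eotaxin receptor encoded by Ccr3. Not all of these genes are private to the lineage: Ear2 and Siglecf are also known from monocytes or macrophages, Alox15 from macrophages, and Ccr3 from basophils.

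The upstream sequences of Ear1 and Ear2 are shown because these close copies differ widely in level. RefSeq promoter windows (build GRCm38.p6) matched 8 of the 10 genes, all but Prg2 and Alox15, and the 250 bases before each start site were used. Those of Ear1 (chr14:43819640-43819889, minus strand) and Ear2 (chr14:44102404-44102653, plus strand) were 97.6% identical, with 246 identical bases over 252 alignment columns. The Ear1 window precedes the RefSeq start, and GENCODE also annotates a longer Ear1 transcript that begins further upstream, so this window lies within the GENCODE span of the gene given below. They are printed 5′ to 3′ with the bases that have no identical partner in the other sequence in capitals, 4 in each.
Ear1: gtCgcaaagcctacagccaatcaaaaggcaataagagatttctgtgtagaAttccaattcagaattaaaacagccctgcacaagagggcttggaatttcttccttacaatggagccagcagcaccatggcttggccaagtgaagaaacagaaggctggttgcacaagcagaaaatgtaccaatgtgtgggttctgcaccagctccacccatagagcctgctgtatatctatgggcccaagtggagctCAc
Ear2: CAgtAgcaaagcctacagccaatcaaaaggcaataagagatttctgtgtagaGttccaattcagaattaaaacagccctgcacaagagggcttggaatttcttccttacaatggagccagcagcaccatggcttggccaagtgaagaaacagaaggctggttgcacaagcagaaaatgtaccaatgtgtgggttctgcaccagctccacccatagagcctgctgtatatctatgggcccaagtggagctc

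The upstream sequences of Epx (chr11:87875537-87875786, minus strand), the granule gene with the largest fold change, and of Il5ra (chr6:106749038-106749287, minus strand), the surface gene with the largest, are shown with motif matches in capitals. The motifs marked were AGATAA and TGATAA, forms of the GATA factor motif, and TATAAA, the TATA box, each searched on both strands.
Epx: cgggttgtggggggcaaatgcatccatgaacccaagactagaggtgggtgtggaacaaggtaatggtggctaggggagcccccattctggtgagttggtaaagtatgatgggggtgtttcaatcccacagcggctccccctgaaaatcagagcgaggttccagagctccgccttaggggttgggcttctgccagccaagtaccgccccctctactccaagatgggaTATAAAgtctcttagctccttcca
Il5ra: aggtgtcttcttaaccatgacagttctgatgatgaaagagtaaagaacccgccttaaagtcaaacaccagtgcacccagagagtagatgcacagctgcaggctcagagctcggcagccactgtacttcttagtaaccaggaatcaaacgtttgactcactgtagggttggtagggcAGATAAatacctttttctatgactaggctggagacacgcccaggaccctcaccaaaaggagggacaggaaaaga
The TATAAA match of Epx begins 24 bases before the start site, and 12.4% of the 32851 promoter windows of that length held this motif. AGATAA or TGATAA was found in 3 of the 8 genes, Il5ra, Prg3 and Ccr3, and in 16.6% of all windows. The C/EBP half-site pair TTGCNNAA was found in Ear1 and Ear2 alone among the 8, as TTGCACAA in both, and in 9.56% of all windows, and the PU.1 motif GAGGAAGT in none of the 8 and in 2.44% of all windows. These matches describe letters in a window and were not related to binding.

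The eosinophil genes did not move as a block. Prg2 and Epx rose in CUMS, Ear1, Ear6 and Il5ra measured higher in every CUMS library than in any Control library without passing the test, and Prg3, Ear2, Siglecf, Ccr3 and Alox15 overlapped between the groups. The split ran across the roles: the groups were separate, with CUMS higher, for 4 of 6 granule genes and for 1 of 4 surface and enzyme genes, and no member was separate with CUMS lower. Of all 15778 genes tested, 11.5% were separate with CUMS higher and 11.5% with CUMS lower. In edgeR's quasi-likelihood test with Benjamini-Hochberg adjustment over all genes at a threshold of 0.05, 2 of the 10 members were called, both higher in CUMS, where 4.5% of all genes were called, 2.36% higher and 2.14% lower. The median log2 fold change was 1.57 over the 6 granule genes and 0.17 over the 4 others, against -0.0073 over all genes tested. All 10 passed the filter on low values, but Epx, Ear6 and Il5ra passed it only through their CUMS libraries, so the filter favoured their direction. Results of this contrast, the rise of Prg2 among them, were known when the genes were chosen, so the values describe these genes and do not support a statement about eosinophil genes in general.

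**Figure D1:**
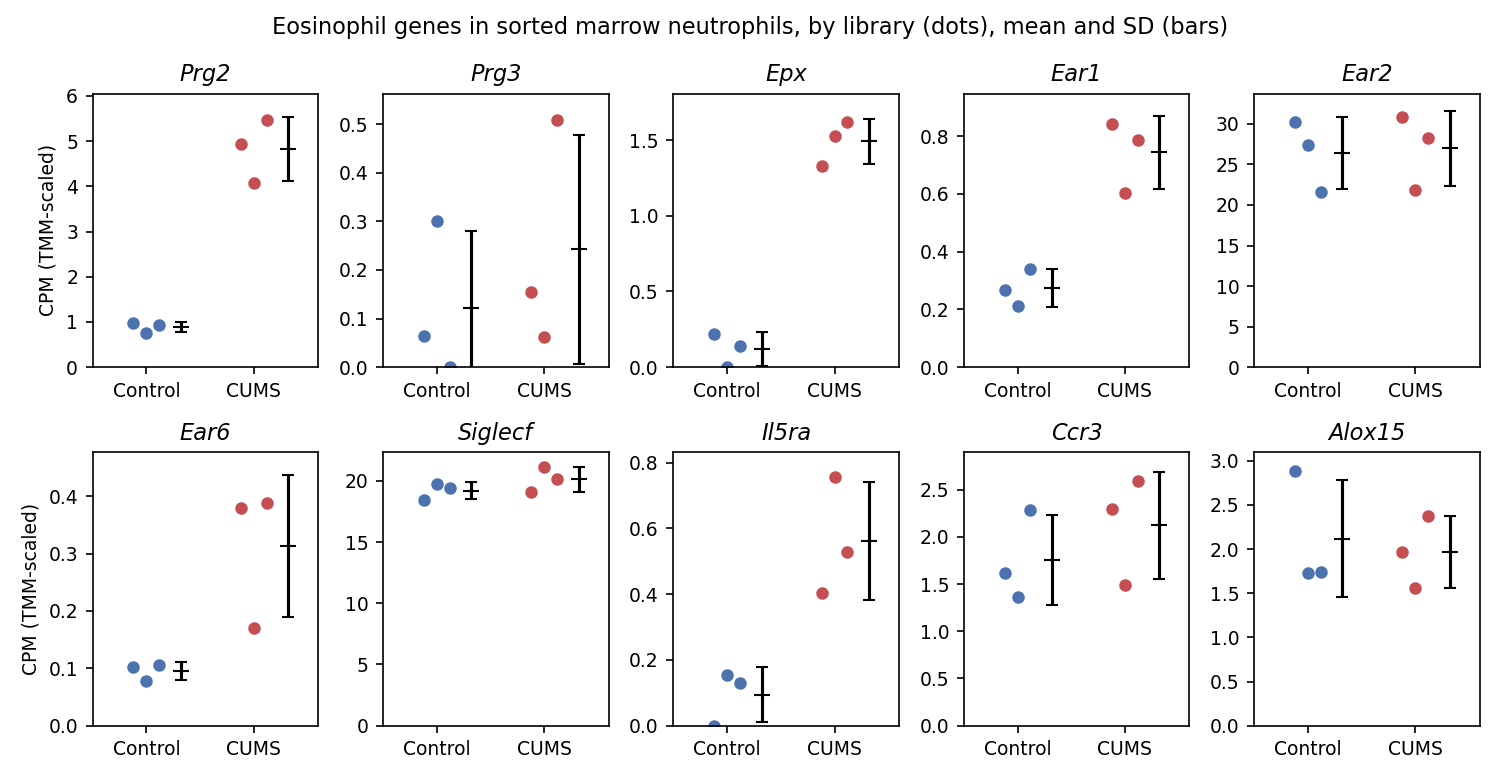
Level of each gene in CPM (normalised count scaled to the library total, y axis from 0) in the 3 Control and 3 CUMS libraries (dots), with the mean and SD beside them (an SD that reaches below 0 is cut off by the axis). Prg2, Epx, Ear1, Ear6 and Il5ra have separate groups, and the other 5 genes overlap.

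Values are given in CPM scaled by TMM, and read support in read pairs, taken as the deposited number divided by 4 because these numbers cluster at multiples of 4. The libraries held 19711364 to 27439390 read pairs, so that a floor of 3 read pairs corresponded to 0.108 to 0.153 CPM. All members together stood at 46.7 to 54.8 CPM in Control and 53.2 to 62.6 CPM in CUMS. In the same libraries 12 neutrophil markers summed to 130360 to 142440 CPM in Control and 111150 to 138110 CPM in CUMS, so transcripts of the sorted cell type far outweigh those of the members. Ear2 and Siglecf made up 87.8% to 91.1% of the summed level of the 10 genes in Control and 77.2% to 80.8% in CUMS, so a sum over all members mostly reads those genes. In sorted bulk cells, fewer cells of a type and less RNA per cell cannot be told apart.

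Prg2 encodes the major basic protein that forms the crystalline core of the eosinophil granule. Its level was 0.969, 0.755 and 0.931 CPM in Control replicates 1 to 3 and 4.93, 4.06 and 5.47 CPM in CUMS replicates 1 to 3. All 3 CUMS libraries lay above all 3 Control libraries, and the spread within each group was small beside the gap. The means were 0.885 ± 0.114 and 4.82 ± 0.708 CPM (SD, n = 3 each). The log2 fold change was 2.45 ± 0.21 (SE), or 5.45-fold, with a 95% interval from 1.99 to 2.90. The reads behind these values were 19.0, 19.5 and 19.8 read pairs in Control and 104, 113 and 148 in CUMS. Of all genes tested, 0.260% had a larger log2 fold change. The gene has 1 annotated transcript on the plus strand of chr2:84980461-84983632 (GENCODE M21, GRCm38).

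Epx encodes eosinophil peroxidase, the haem enzyme that makes hypobromous acid, and is a close relative of the neutrophil enzyme myeloperoxidase. It measured 0.217, 0 and 0.141 CPM in the Control libraries and 1.33, 1.53 and 1.62 CPM in the CUMS libraries. Control replicate 2 listed it at 0, which allows up to 0.116 CPM by the floor of 3 read pairs, and the lowest CUMS library stood several times above the highest Control library. The means were 0.119 ± 0.110 and 1.49 ± 0.148 CPM (SD, n = 3 each), with a log2 fold change of 3.68 ± 0.73 (SE) and an adjusted p of 0.0156 in edgeR. Since 7 read pairs stood against 114 over the groups, the ratio of 14.3 had a counting interval from 6.72 to 36.4 (95%, from an exact binomial interval, counting error only). Leaving out Control replicate 3, or either of CUMS replicates 2 and 3, ended the call, with adjusted p of 0.0627, 0.0711 and 0.0714, while it was kept without any other single library. Epx lies on the minus strand of chr11:87864000-87875536, with the peroxidase genes Lpo and Mpo 35.71 and 59.59 kb away on the same chromosome.

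Prg3, the homologue of major basic protein encoded 4.58 kb from Prg2 at chr2:84988215-84993886, was too scarce to tell whether it shares the pattern of its neighbour. It measured 0.0637, 0.300 and 0 CPM in Control and 0.154, 0.0629 and 0.509 CPM in CUMS. The groups overlapped, and a single library in each, Control replicate 2 and CUMS replicate 3, held most of the reads. The log2 fold change was 0.97 ± 1.19 (SE, adjusted p = 0.769, edgeR), with a 95% interval from -1.63 to 3.57 that includes the value of Prg2. Without CUMS replicate 3 it was -0.18. It rests on 9 read pairs in Control and 19 in CUMS.

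The ribonuclease genes Ear1, Ear2 and Ear6, whose products are related to the human eosinophil cationic protein and eosinophil-derived neurotoxin, separated into a scarce pair and an abundant gene. Ear2 measured 30.2, 27.5 and 21.6 CPM in Control and 30.9, 21.8 and 28.3 CPM in CUMS. The groups overlapped over nearly their whole range. Its log2 fold change of 0.03 ± 0.14 (SE, adjusted p = 0.954) had a 95% interval from -0.27 to 0.33, on 1760 and 2020 read pairs. Ear1 measured 0.268, 0.213 and 0.342 CPM in Control and 0.843, 0.602 and 0.786 CPM in CUMS. Each CUMS library was above each Control library. The log2 fold change was 1.44 ± 0.45 (SE), and it did not pass (adjusted p = 0.111), with a 95% interval from 0.45 to 2.42 on 18 and 56 read pairs. Ear6 measured 0.102, 0.0774 and 0.106 CPM in Control and 0.380, 0.171 and 0.388 CPM in CUMS. Each Control value of Ear6 lay below the floor of 3 read pairs, which was 0.153, 0.116 and 0.141 CPM in those libraries. CUMS replicate 2 lay closer to the Control libraries than the other CUMS libraries did. Its log2 fold change was 1.71 ± 0.74 (SE, adjusted p = 0.263), on 6 and 23 read pairs.

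Ear1 and Ear2 are close copies, so reads could be exchanged between them. Their annotated transcripts were 96.4% identical over 713 aligned positions, while Ear6 was 88.6% identical to Ear1 and 88.7% to Ear2. Of the 150-base windows in the transcripts of Ear1, 5.67% were also found in another gene (Ear-ps9), of those of Ear2, 6.32% (Ear10), and of the other 8 members, none. No such window was shared between Ear1 and Ear2 themselves. Whether reads with mismatches were exchanged was not tested, so the value of Ear1 is uncertain, at about 1% of the level of Ear2 in Control. The ratio of Ear1 to Ear2 was 0.886%, 0.775% and 1.58% in Control and 2.73%, 2.76% and 2.78% in CUMS. The Control libraries were uneven in this ratio, the CUMS libraries nearly equal, and the groups did not overlap. Ear1 is annotated on the minus strand of chr14:43818765-43875517, Ear2 on the plus strand of chr14:44102654-44103534 and Ear6 on the plus strand of chr14:51853699-51854643.

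Among the surface genes, Il5ra measured in the direction of Prg2 and Epx. It encodes the ligand-specific subunit of the interleukin-5 receptor, the main growth and survival receptor of the lineage. Its level was 0, 0.155 and 0.130 CPM in Control and 0.404, 0.755 and 0.527 CPM in CUMS. All CUMS libraries were above all Control libraries, and Control replicate 1 listed the gene at 0, which allows up to 0.153 CPM. The log2 fold change of 2.53 ± 0.86 (SE) did not pass in edgeR (adjusted p = 0.147), while DESeq2 called the gene (log2 fold change 2.55, adjusted p = 0.0268). Both tests took the deposited values undivided, and with values divided by 4 the filter left Il5ra out. The counting interval of the ratio, on 7 and 44 read pairs, ran from 2.47 to 14.5. Il5ra lies on the minus strand of chr6:106710357-106749037.

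Siglecf, a sialic acid binding receptor used to gate mouse eosinophils, was steady. It measured 18.5, 19.8 and 19.4 CPM in Control and 19.1, 21.2 and 20.1 CPM in CUMS, and the groups overlapped. The log2 fold change was 0.07 ± 0.08 (SE, adjusted p = 0.754), and the 95% interval from -0.10 to 0.24 on 1285 and 1534 read pairs is the narrowest of the 10 genes. Ccr3, the eotaxin receptor gene, measured 1.62, 1.36 and 2.29 CPM in Control and 2.29, 1.49 and 2.59 CPM in CUMS. The overlap was wide, with a log2 fold change of 0.28 ± 0.28 (SE, adjusted p = 0.706, interval -0.33 to 0.88). Alox15, a lipoxygenase gene of eosinophils and resident macrophages, measured 2.88, 1.73 and 1.74 CPM in Control and 1.97, 1.56 and 2.38 CPM in CUMS. It was the member with a negative estimate, -0.10 ± 0.26 (SE, adjusted p = 0.909, interval -0.68 to 0.48). Siglecf is on the plus strand of chr7:43351341-43359531, Ccr3 on the plus strand of chr9:124021972-124031689 and Alox15 on the minus strand of chr11:70344152-70352031.

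**Figure D2:**
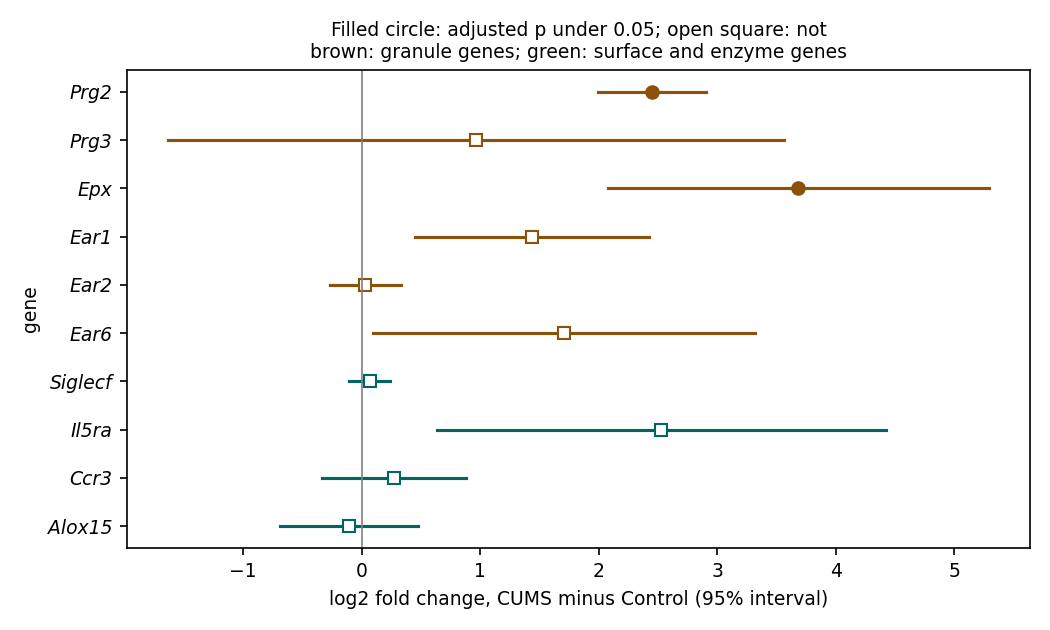
Log2 fold change of CUMS against Control (x axis) for each of the 10 genes, with its 95% interval as a line. Prg2 and Epx (filled circles) passed the test. The intervals of Ear1, Ear6 and Il5ra lie above 0 before adjustment over all genes, and those of Ear2 and Siglecf are narrow around 0.

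Levels between genes were compared per kilobase of annotated exon. In Control, Ear2 stood highest at 36.7 CPM per kb, followed by Siglecf at 6.89, Prg2 at 1.06, Alox15 at 0.863 and Ccr3 at 0.537. Prg2 and Alox15 did not differ beyond their spread in Control, with 0.901 to 1.16 and 0.706 to 1.17 CPM per kb over the libraries. In CUMS, Prg2 reached 5.75 CPM per kb, below Siglecf at 7.21, and its range of 4.85 to 6.52 still fell short of the lowest Siglecf library at 6.85. Ear1 stood at 1.02 CPM per kb in CUMS, Epx at 0.545 and Il5ra at 0.157. The order of Ear2 and Siglecf was the same in both groups.

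The ratios within a library show the split without reference to library scaling. Prg2 stood at 3.21%, 2.75% and 4.32% of the CPM of Ear2 in Control and at 16.0%, 18.6% and 19.3% in CUMS. Against Siglecf it stood at 5.25%, 3.82% and 4.79% in Control and at 25.8%, 19.2% and 27.2% in CUMS. Neither ratio overlapped between the groups. Ear2 against Siglecf was 138% ± 26.4 in the Control libraries, and 135% ± 29.6 after stress (SD, n = 3 each), with full overlap. Epx stood at 27.0%, 37.6% and 29.6% of Prg2 in the CUMS libraries, and at 22.4%, 0% and 15.2% in Control, where a few reads set the value.

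**Figure D3:**
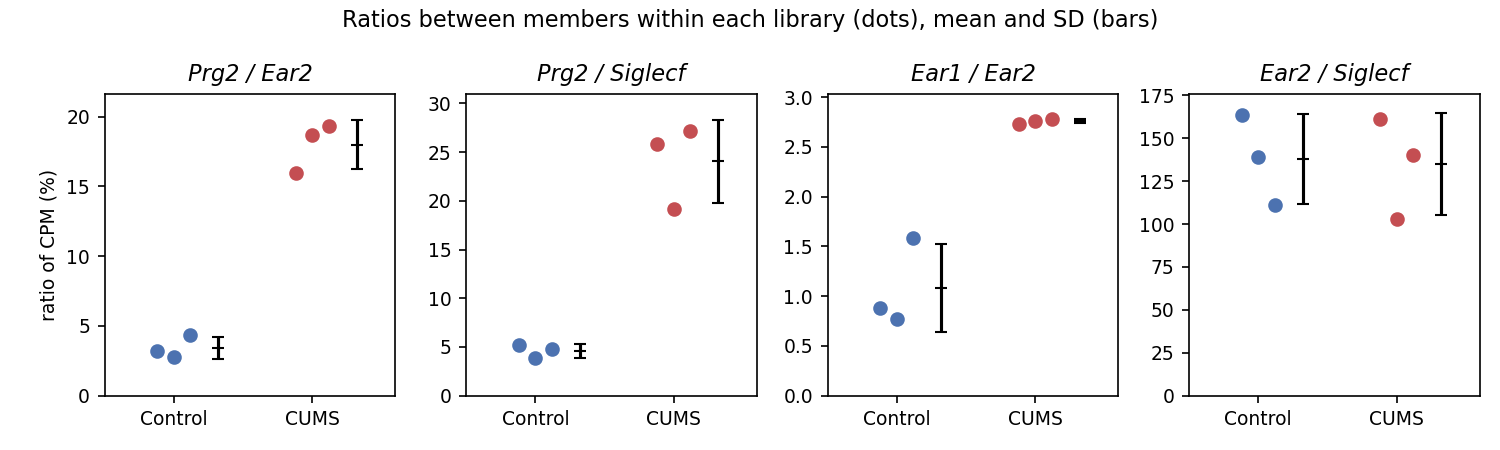
Ratio of the CPM of 2 genes within each library, in percent (y axis from 0), for Control and CUMS libraries (dots) with mean and SD. Prg2 against Ear2 and against Siglecf, and Ear1 against Ear2, are higher in all CUMS libraries, while Ear2 against Siglecf overlaps.

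Genes that act around these members were read from lists by role. Of 10 other ribonuclease genes, of the Ear family and beyond, 5 were tested: Rnase4, Rnase6, Ang, Rnaset2a and Rnaset2b. No Ear gene was among the 5, and 0 of them were called in edgeR (1 with an unadjusted p below 0.05, and 0 by DESeq2). The most abundant, the lysosomal ribonuclease genes Rnaset2a and Rnaset2b, had log2 fold changes of 0.16 ± 0.07 and -0.11 ± 0.08 (SE). Ear5 had no row, Ear10 and Rnase2b were left out by the filter, and Ear14 and Rnase2a were listed at 0 in all 6 libraries. The direction of these Ear family genes is therefore not known from these libraries.

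Of 20 genes of interleukin-5 signalling and of the transcription factors of the lineage, 3 fell in edgeR and the other 17 did not pass. The median log2 fold change was -0.03, and DESeq2 called 3 of the 20 higher and 4 lower. The groups were separate with CUMS higher for 6 of the 20 and with CUMS lower for 5. Of all genes tested, 11.5% were separate in each direction. Csf2rb, the beta chain that pairs with the product of Il5ra, fell by 0.20 ± 0.037 (SE, adjusted p = 0.0110), from 641 ± 19.0 to 559 ± 6.15 CPM (SD, n = 3 each). Id1, an inhibitor of basic helix-loop-helix factors, fell by 0.57 ± 0.088 (adjusted p = 0.00409), and Xbp1, a factor of the secretory pathway needed for eosinophil development, by 0.29 ± 0.049 (adjusted p = 0.00633). Csf2ra, the receptor subunit for GM-CSF, stood at 630 and 610 CPM (log2 fold change -0.05 ± 0.05, adjusted p = 0.712). Gata1 and Gata2, named here after their values were seen, encode GATA factors of the eosinophil, basophil and mast cell lineages. Gata2 stood at 1.74 ± 0.239 CPM in Control libraries and at 0.604 ± 0.365 CPM after stress (log2 fold change -1.52 ± 0.39, adjusted p = 0.0526, groups not overlapping), the opposite direction to Prg2. Gata1 was near the floor at 0.151 and 0.110 CPM.

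Of 18 other surface and homing genes of eosinophils, Itgb7 and Clec7a rose, Il13ra1 fell and 15 did not pass (median log2 fold change -0.01). Itgb7, an integrin chain of gut homing, stood at 27.1 ± 3.14 CPM in Control and at 45.6 ± 1.73 CPM in CUMS (SD, n = 3 each), which is a log2 fold change of 0.75 ± 0.083 (adjusted p = 4.39e-04). Clec7a, the beta-glucan receptor gene, rose by 0.23 ± 0.039 (adjusted p = 0.00708) and Il13ra1, an interleukin-13 receptor subunit gene, fell by 0.30 ± 0.054 (adjusted p = 0.00925). The most abundant of the list, Pirb and Cd24a, stood at 1204 and 1077 CPM in Control and had log2 fold changes of -0.03 and -0.01. These levels are far above those of the members. Clec7a and Il13ra1 stood at 292 and 73.8 CPM in Control, also above each member. Which cells carry the transcripts of this list was not tested.

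Of 10 ligand genes, among them the interleukins and eotaxins that act on eosinophils, 8 were listed at 0 in all 6 libraries. The chemokine gene Ccl5 alone was tested and did not pass (adjusted p = 0.797, edgeR). Of 12 lipoxygenase, leukotriene and prostaglandin genes, the last being Hpgds, Ptgs1 and Ptgs2, 8 were tested and 0 were called in edgeR. An unadjusted p below 0.05 was found for 3, Lta4h, Ptgs1 and Ptgs2, and DESeq2 called 0. Alox5ap and Alox5, the leukotriene pair shared with neutrophils, stood at 890 and 675 CPM in Control and had log2 fold changes of -0.11 ± 0.07 and -0.04 ± 0.04.

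Genes of the granule enzymes of neutrophil precursors were read beside the eosinophil granule genes, with Srgn and Serpinb1a, which do not encode enzymes. Of these 8 genes, 7 were tested, and Elane and Mpo rose. Ctsc, encoding the protease that activates the granule serine proteases, fell by 0.99 ± 0.11 (adjusted p = 4.59e-04). The serine protease genes Prtn3 and Ctsg had log2 fold changes of 0.31 ± 0.33 and 0.78 ± 0.46. Their groups overlapped and they did not pass (adjusted p = 0.734 and 0.434, edgeR). Mpo, the peroxidase gene near Epx, had a log2 fold change of 1.03 ± 0.19, a difference from Epx that was not tested, and the ratio of Mpo to Prg2 was 383% ± 51.6 in Control against 147% ± 29.0 after stress (SD, n = 3 each). Lpo was listed at 0 in all 6 libraries. Srgn and Serpinb1a, the most abundant of the list, had log2 fold changes of -0.10 ± 0.05 and -0.16 ± 0.06.

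The 6 other genes with the profile most like that of Prg2 were Elane, LOC68395, H2-Q9, H2-Q6, H2-Q7 and Rps27rt, by the root mean square difference of centred log2 CPM over the 6 libraries, among genes of at least 1 CPM. That difference was 0.242 for Elane, which measured 0.599, 0.339 and 0.424 CPM in Control and 2.67, 1.65 and 2.06 CPM in CUMS, and 0.310 to 0.471 for the others. Among the members, to which the minimum of 1 CPM was not applied, the difference to Prg2 was 0.535 for Ear1 and 0.541 for Ear6. It was 1.09 to 1.50 for the other 7, with 1.27 for Epx, 1.21 for Ear2 and 1.19 for Siglecf. This likeness does not read the size of the group difference alone. Il5ra, with a log2 fold change of 2.53, differed from Prg2 by 1.13, and Ccr3, with 0.28, by 1.09. Epx and Il5ra were each listed at 0 in a Control library, and the weight of that value in this measure was not tested. The H2-Q genes and Rps27rt have near-identical copies, so their single values are uncertain.

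Markers of other cells moved with the groups in the same libraries. Of 18 erythroid markers, 9 rose, and their summed level ran from 1318 to 1890 CPM in Control and from 2543 to 3029 CPM in CUMS, with Alas2 and Slc4a1 higher by 0.99 ± 0.13 and 1.20 ± 0.15 on the log2 scale. Of 18 monocyte and macrophage markers, Fn1, F13a1 and Csf1r rose (log2 fold changes 1.38 ± 0.19, 1.34 ± 0.23 and 0.19 ± 0.04), and the summed levels overlapped at 15468 to 16398 and 14603 to 16613 CPM. Lyz2, which neutrophils also express, made up most of that sum. Of 13 basophil and mast cell markers, 7 were tested and 6 of these had negative log2 fold changes. Hdc, which neutrophils also express, fell by 0.35 ± 0.034, and DESeq2 called 2 of the 7 lower. The basophil genes Ms4a2 and Prss34, named after their values were seen, had log2 fold changes of -1.58 ± 0.44 and -0.41 ± 0.17 (adjusted p = 0.0682 and 0.230, edgeR), each with all CUMS libraries below all Control libraries. The groups overlapped for Mcpt8, Cpa3 and Fcer1a (adjusted p = 0.756, 0.933 and 0.714, edgeR), and Kit had a positive estimate of 0.08 ± 0.08. Gzmb was not tested and was separate with CUMS higher, below the floor in every library. The sum was 1081 to 1096 CPM in Control and 851 to 878 CPM in CUMS, mostly Hdc, and the mast cell protease genes Tpsab1, Tpsb2, Cma1 and Mcpt4 were listed at 0 in all 6 libraries. The part of these cells in the values of Prg2, Epx and the other members was not tested.

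Other lineages were measured in the same way. The 12 B cell markers summed to 38.3 to 46.2 CPM in Control and 49.6 to 56.1 CPM in CUMS, without overlap. All 12 had positive log2 fold changes (median 0.41, against -0.0073 over all genes tested). The groups were separate with CUMS higher for 3 of them and with CUMS lower for 0. Of all genes tested, 11.5% were separate in each direction. In edgeR 0 of the 12 were called (2 with an unadjusted p below 0.05, and 1 by DESeq2). The 6 plasma cell markers summed to 3.42 to 4.00 and 4.17 to 5.23 CPM, also without overlap. The 12 T and NK cell markers summed to 4.49 to 6.90 and 4.69 to 6.29 CPM, and the 7 megakaryocyte markers to 9.11 to 22.5 and 10.2 to 20.0 CPM. In these 3 lists 0 genes were called in edgeR, 0 had an unadjusted p under 0.05 and 0 were called by DESeq2. Of the 12 neutrophil markers, Mmp9 rose by 0.12 ± 0.03 and Ltf and Camp fell by 0.11 ± 0.03 and 0.27 ± 0.07. S100a9 was the most abundant, at 38938 ± 4841 CPM in the Control libraries and 32898 ± 5705 CPM after stress (SD, n = 3 each).

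**Figure D4:**
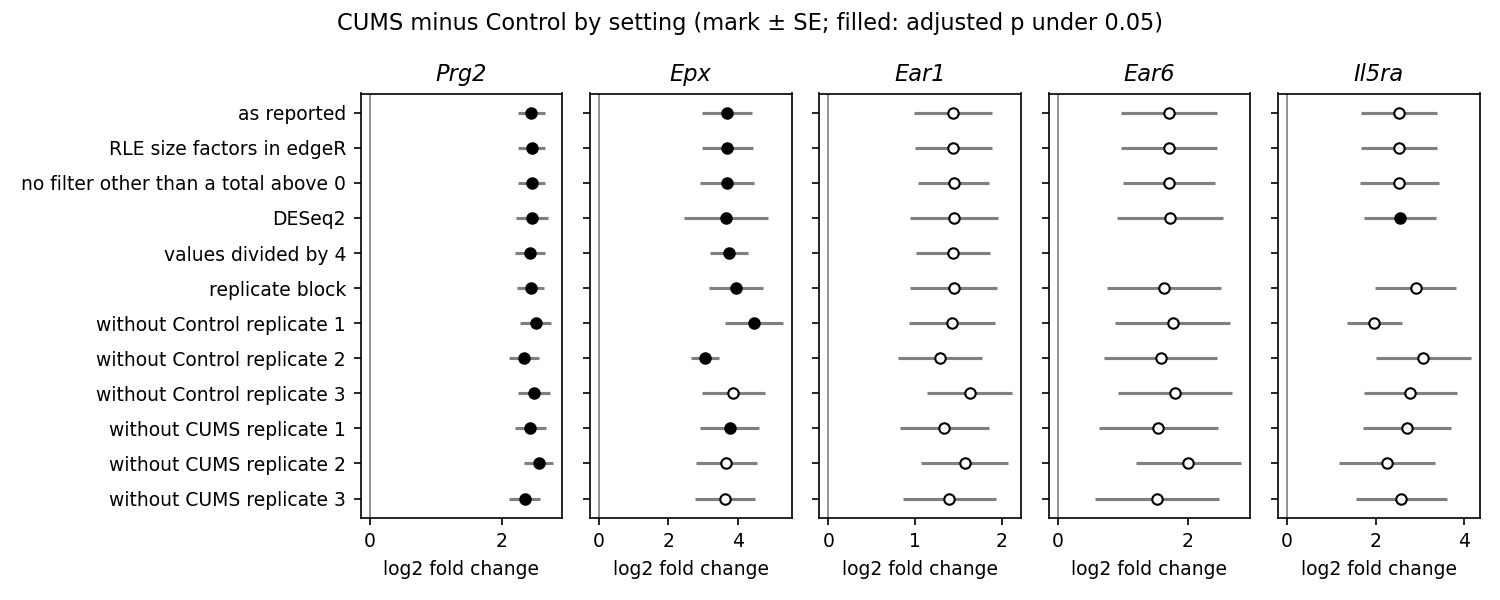
Log2 fold change of CUMS against Control (x axis, mark with SE) for the 5 genes with separate groups under each setting (rows). Filled marks passed an adjusted p of 0.05. Prg2 passed in every setting shown and lies between 2.35 and 2.56 under the alternatives, Epx lost its call without 3 single libraries, and Il5ra passed with DESeq2 alone.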

How the data were processed

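The authors deposited whole-number values per gene, taken here as estimated counts, made from reads with bcl2fastq 2.19, cutadapt 1.16.5, HISAT2 2.1 and featureCounts 1.6.4 among the tools listed (with DESeq2 2.11.40.6 and the build mm10), per the submitters' processing notes. Which tool gave them is not stated in those notes. The number 4 was 1.89 times as frequent as the mean of 3 and 5, with a like excess at 8, 12 and 16 (1.66, 1.41 and 1.38), and 1588 rows carry identifiers of assembled transcripts (STRG). A read pair was therefore taken as 4 estimated counts. Libraries were made from 1 µg of RNA and read as pairs of 150 bp, per the labels' protocols.

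All rows entered edgeR 4.0.16 (R 4.3.3): filterByExpr at its defaults (15778 genes kept), TMM scaling, and the quasi-likelihood F test of CUMS against Control with group as the single term. SEs derive from the F statistic. Alternatives were RLE scaling, no filter, DESeq2 1.42.0, values divided by 4, a replicate block and each library left out. Named were the members, from each list the genes called (the 6 of smallest p at most) and the 2 most abundant, and the 6 genes most like Prg2, with exceptions stated. Not every marker so chosen is printed. The members and lists were chosen with earlier results of these data known. Coordinates and exon lengths are from GENCODE M21 (GRCm38), matched by symbol. Strandedness is not given, so overlapping genes cannot be told apart.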

Additional observations from a re-analysis of the deposited data

How the results depend on the processing

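Prg2 was called under all 11 alternatives, with log2 fold changes from 2.35 to 2.56. Epx was called under 8 of 11 (log2 fold change 3.06 to 4.46, adjusted p 8.76e-04 to 0.0714). Leaving out 1 library at a time, 1 to 2 members were called, 145 to 353 genes over all were called higher and 160 to 344 lower, against 372 and 338. DESeq2 called 639 higher and 523 lower, and the fit without a filter called 213 lower. The labels do not state that replicate numbers pair the samples. Between libraries of the same number, the correlations of deviations from the group mean were 0.0081, 0.0035 and -0.026. With so few libraries these values cannot exclude a pairing. With the replicate block, 931 genes were called against 710, Prg2 (log2 fold change 2.44) and Epx (3.95) among them.

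Leaving out single libraries changed the sign of 3 estimates that were not called at either sign: Prg3 ran from -0.18 (without CUMS replicate 3) to 2.90, Ear2 from -0.095 (without Control replicate 3; also negative without CUMS replicate 1 or 3) to 0.16, and Alox15 from -0.26 to 0.18 (positive without Control replicate 1 or CUMS replicate 2). Ear1 and Ear6 passed under no alternative (adjusted p 0.0589 to 0.291 and 0.225 to 0.576). Among interleukin-5 signalling genes DESeq2 called 3 higher. Among other surface genes 2 were lower with DESeq2, with values divided by 4 and with the replicate block, and 0 to 2 without single libraries. Among azurophil genes 2 were lower with the replicate block and 1 to 2 without single libraries. The cause was not tested. Prg3, Ear6 and Il5ra had no value with values divided by 4, since the filter then left them out. Summing rows of a shared symbol was not run, since each member had 1 row. Prg3, Epx, Ear1, Ear6 and Il5ra rest on few read pairs, 6 to 18 over the Control group.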
